A study of Mus musculus with 4 samples.

Results

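Rpgrip1, Cap1, Rbm45, Tmem87a, Erdr1, Pdgfrl, Mgll, Amacr, Qpct and Ptprv are 10 of the 18193 named genes on the array, and 18 of its 45101 probe sets carry their symbols. They were chosen by the signals described here: the brightest probe set of each differed widely, in the same direction, between cells labelled Wip1-/- and cells labelled Wip1+/+, before irradiation, after it or both. The differences between the labels are therefore a description of the chosen genes. RNA came from mouse embryonic fibroblasts (MEFs), primary cells grown out of embryos. The 4 groups were Wip1+/+ and Wip1-/- MEFs without irradiation (0 h), and Wip1+/+ and Wip1-/- MEFs 4 h after 5 Gy of gamma radiation. Wip1 is the phosphatase encoded by Ppm1d, which switches off p53 and the kinases of the DNA damage response, and the study was set up to look at p53 target genes. Each group was 1 array, so no difference has a replicate check and no p-value is given. The number of embryos behind a culture and the strain of the cells are not given in the labels, so genotype cannot be told apart from differences between cultures. Irradiation likewise cannot be told apart from 4 h of culture.

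The 10 genes do not belong to one pathway. Rpgrip1 and Cap1 act in the cilium and the actin cytoskeleton. Rbm45 binds RNA, Tmem87a sits in Golgi membranes, and Erdr1 is a gene of the sex chromosomes. Pdgfrl and Ptprv resemble cell surface receptors, and Mgll, Amacr and Qpct are enzymes of lipid and peptide modification. They lie on 9 chromosomes, and 0 of them lie on chromosome 11, which holds Ppm1d. An expression array reads a transcript through probe sets, groups of short probes from one stretch of the transcript, and a gene with several probe sets is read at several places. Signals are in arbitrary units and compare arrays for the same probe set only.

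Ppm1d itself gave signals of 375 (Wip1+/+, 0 h), 364 (Wip1+/+, 4 h), 504 (Wip1-/-, 0 h) and 482 (Wip1-/-, 4 h) from probe set 1434142_at. Its probe set 1449092_at gave 317, 463, 219 and 561 in the same order. Neither probe set of Ppm1d was lower at both times with the Wip1-/- label. The labels do not say where its probes lie relative to the deleted part, so Ppm1d does not check the labels. The array labelled Wip1-/- at 0 h stood apart: its log2 signals for 18 spike-in control probe sets differed from those of the other arrays with an SD of 0.44 to 0.47, against 0.074 to 0.10 between the others. Its 3′ to 5′ signal ratio for Gapdh was 0.98, against 0.70 to 0.73 on the others. The same ratio for Actb was 1.25, close to the 1.21 to 1.22 on the others. The 4 h comparison between the labels does not use that array. As a measure of error within a pair of arrays, the log2 ratios of different probe sets of one gene had a pooled SD of 0.65 between the labels at 0 h and of 0.41 at 4 h (5278 genes). For the 4 h over 0 h ratio it was 0.37 in Wip1+/+ cells and 0.62 in Wip1-/- cells. Over 2317 genes with several probe sets of mean signal 500 or more, the SDs were 0.55, 0.23, 0.18 and 0.54 in the same order.

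RefSeq start sites gave a promoter window, from 250 bases before to 50 bases after the start, for 5 of the 10 genes: Rpgrip1, Cap1, Rbm45, Tmem87a and Mgll. The windows of the first 4 are printed because these genes are 4 of the 5 members that differed at least 8-fold between the labels at both times. They are reference sequence of build GRCm38.p6 and were not read from these cells. Each runs 5′ to 3′ on the gene's strand. Capitals mark matches on either strand to TATAAA (the TATA box), CCAAT (the CCAAT box), GGGCGG (an Sp1 site) or CCGGAAG (an ETS site), motifs picked after the sequences had been read. Rpgrip1 lies at chr14:52110653-52110952 (+), Cap1 at chr4:122886027-122886326 (-), Rbm45 at chr2:76369734-76370033 (+) and Tmem87a at chr2:120404067-120404366 (-).
Rpgrip1: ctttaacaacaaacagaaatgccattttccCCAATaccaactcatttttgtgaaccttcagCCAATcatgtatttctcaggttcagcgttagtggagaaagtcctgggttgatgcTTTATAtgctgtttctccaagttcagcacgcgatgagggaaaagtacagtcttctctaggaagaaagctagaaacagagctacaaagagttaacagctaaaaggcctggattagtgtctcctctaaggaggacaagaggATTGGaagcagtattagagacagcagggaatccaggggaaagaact
Cap1: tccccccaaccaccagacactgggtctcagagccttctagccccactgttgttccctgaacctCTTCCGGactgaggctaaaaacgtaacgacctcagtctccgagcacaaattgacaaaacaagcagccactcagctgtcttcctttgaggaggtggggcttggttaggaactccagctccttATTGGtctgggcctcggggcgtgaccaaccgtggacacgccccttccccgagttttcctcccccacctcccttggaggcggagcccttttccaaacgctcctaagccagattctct
Rbm45: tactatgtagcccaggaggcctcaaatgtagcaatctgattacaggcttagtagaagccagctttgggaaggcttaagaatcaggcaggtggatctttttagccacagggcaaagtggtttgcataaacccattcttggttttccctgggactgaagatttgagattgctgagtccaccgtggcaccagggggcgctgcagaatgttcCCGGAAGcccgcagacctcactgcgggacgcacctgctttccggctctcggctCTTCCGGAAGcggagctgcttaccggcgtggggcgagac
Tmem87a: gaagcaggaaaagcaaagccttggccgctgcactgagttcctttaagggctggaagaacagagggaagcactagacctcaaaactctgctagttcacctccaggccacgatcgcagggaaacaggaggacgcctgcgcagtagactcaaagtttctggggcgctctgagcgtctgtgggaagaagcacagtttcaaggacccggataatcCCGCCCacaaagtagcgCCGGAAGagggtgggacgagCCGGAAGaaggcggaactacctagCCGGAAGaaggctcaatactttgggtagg

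The Rpgrip1 window held 3 CpG dinucleotides, 1 match to TATAAA and 3 to CCAAT. The other 3 printed windows, of genes with higher signal on the Wip1-/- arrays, held more CpG: 11 for Cap1, 13 for Rbm45 and 15 for Tmem87a, beside a median of 7 over all promoter windows. CCGGAAG occurred once in the window of Cap1 and 3 times each in those of Rbm45 and Tmem87a, where matches can overlap. Mgll, also higher on the Wip1-/- arrays, has 2 windows with 32 and 42 CpG, and both held 0 matches to CCGGAAG and 1 to GGGCGG. Of 32851 mouse promoter windows of the same length, 8.86% held CCGGAAG, 37.4% held CCAAT, 35.7% held GGGCGG and 13.6% held TATAAA. A match is a run of letters and not a measured binding site.

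All 10 genes were at least 2-fold apart between the labels at 0 h, at 4 h, and in the same direction at both. Among the 11543 genes measured, the background was 12% at 0 h, 5.29% at 4 h and 2.07% at both times. The choice of the genes fixes this, and nothing is read from it. Signal was higher on the Wip1-/- arrays for 7 genes (Cap1, Erdr1, Tmem87a, Rbm45, Pdgfrl, Mgll and Ptprv) and lower for 3 (Rpgrip1, Amacr and Qpct). At least 4-fold at both times, 7 of the 13 such genes with higher signal (0.113% of genes) and 1 of the 25 with lower signal (0.217%) were members. At least 8-fold at both times, 5 of the 10 such genes (0.0866%) were members: Rpgrip1, Cap1, Rbm45, Tmem87a and Erdr1. For all 10 members both arrays of one label lay above both arrays of the other, as for 39.6% of all genes. Tmem87a was measured only through its signal on the Wip1-/- arrays, since its mean on the Wip1+/+ arrays, 39.3, was below the mean of 67.98 needed to enter. Signals under 46.5 were set to that floor, and a fold against the floor is a lower bound.

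**Figure D1:**
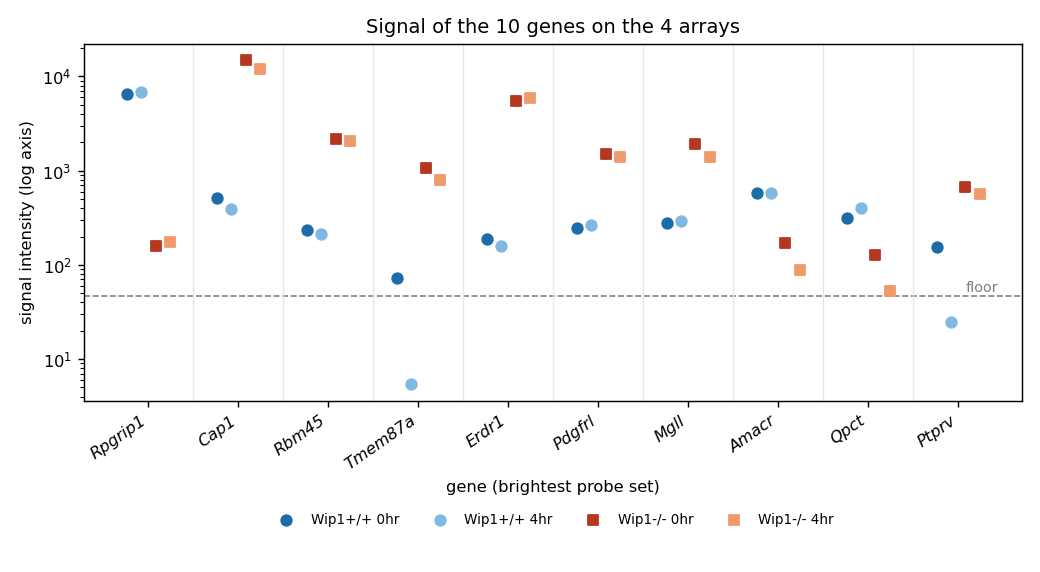
Signal of the brightest probe set of each of the 10 genes on the 4 arrays, log axis in arbitrary units; each point is 1 array and the dashed line is the floor of 46.5. Both Wip1-/- points lie above both Wip1+/+ points for 7 genes and below them for Rpgrip1, Amacr and Qpct.

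Rpgrip1 encodes the protein that anchors RPGR at the connecting cilium of photoreceptors. Its brightest probe set, 1421144_at, read 6509 and 6854 in Wip1+/+ cells at 0 and 4 h and 160 and 176 in Wip1-/- cells. Rpgrip1 signal was 40.8-fold lower on the Wip1-/- array at 0 h and 39.0-fold lower at 4 h, first in rank among all genes measured at each time. The lowest Wip1+/+ signal was 37.0-fold above the highest Wip1-/- signal. The other 3 Rpgrip1 probe sets did not share this pattern. Probe set 1451785_at was below the floor on every array, and 1431357_a_at exceeded it only at 48.2, on the Wip1+/+ array at 4 h. Probe set 1454231_a_at went the opposite way, with 13, 32.3, 208 and 55.0, which is at least 4.47-fold higher on the Wip1-/- array at 0 h and at least 1.18-fold at 4 h. The median of the 4 log2 ratios was 0 at 0 h and -0.026 at 4 h, against -5.35 and -5.28 for the brightest probe set. The low Rpgrip1 signal in Wip1-/- cells thus rests on 1 probe set.

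Other genes of the ciliary transition zone and photoreceptor cilium were close between the labels at 4 h. Of 22 measured, 5 differed at least 2-fold at 0 h (2 higher and 3 lower on the Wip1-/- array) and 0 at 4 h. Their median log2 ratio was 0.20 at 0 h and 0.07 at 4 h, beside 0.05 and -0.0048 over all genes. Ahi1, a transition zone scaffold, read 315, 293, 38.9 and 243, with log2 ratios of -2.76 against the floor at 0 h and -0.27 at 4 h. Spata7, a ciliary protein that interacts with Rpgrip1, read 111, 111, 6.3 and 64.1, with -1.25 against the floor at 0 h and -0.79 at 4 h.

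Cap1 encodes a cyclase-associated protein that binds actin monomers and promotes their recycling from cofilin to new filaments. Probe set 1417461_at read 514 and 388 in Wip1+/+ cells at 0 and 4 h and 14875 and 12120 in Wip1-/- cells. Cap1 signal was 28.9-fold higher with the Wip1-/- label at 0 h and 31.2-fold higher at 4 h. The second Cap1 probe set, 1417462_at, read 449, 280, 4527 and 10201 and was 10.1-fold and 36.5-fold higher. Both probe sets of Cap1 therefore placed the Wip1-/- arrays above the Wip1+/+ arrays, and they were nearer each other at 4 h than at 0 h. The paralogue Cap2 did not share the difference, with 410, 413, 443 and 475 on one probe set and 293, 270, 439 and 304 on the other.

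Of 25 measured genes of actin turnover, 1 was at least 2-fold higher and 2 were lower at 0 h, and 0 were at 4 h. The list median was -0.03 at 0 h and 0.02 at 4 h. Dstn (destrin), an actin-depolymerising factor, had log2 ratios of -2.22 and -0.55. Pfn1 (profilin), which binds actin monomers, had 1.09 and 0.65.

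Rbm45 encodes an RNA-binding protein of the developing nervous system that is found in protein inclusions of motor neuron disease. Its only probe set, 1437904_at, read 236 and 212 in Wip1+/+ cells at 0 and 4 h and 2161 and 2063 in Wip1-/- cells. The ratio was 9.18-fold at 0 h and 9.75-fold at 4 h, and the 2 arrays of each label lay close together. Among 22 measured genes of the RNA-binding motif family, 1 was at least 2-fold higher and 1 lower at 0 h, and 0 were at 4 h, with medians of -0.25 and -0.09. Rbm28, a spliceosomal and nucleolar protein, had log2 ratios of -1.25 and -0.91, and Rbm24, a splicing regulator of muscle, had -0.84 and -0.81.

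Tmem87a encodes a Golgi membrane protein of the seven-helix GOST family. Its only probe set, 1424454_at, read 73.1 and 5.4 in Wip1+/+ cells at 0 and 4 h and 1061 and 797 in Wip1-/- cells. Tmem87a signal was 14.5-fold higher with the Wip1-/- label at 0 h and at least 17.1-fold higher at 4 h, where the Wip1+/+ signal was below the floor. Its paralogue Tmem87b differed by at most 1.20-fold at either time over 3 probe sets. Of the 5 measured genes of the family, 1 was at least 2-fold lower at 0 h and 0 were at 4 h. That gene, Tmem181a, had log2 ratios of -1.73 and 0.01, and Wls, which carries Wnt proteins to the cell surface, had -0.22 and -0.44.

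Erdr1, erythroid differentiation regulator 1, is placed on the X chromosome in the RefSeq annotation and listed there as a transcribed pseudogene. Probe set 1452406_x_at read 189 and 160 in Wip1+/+ cells at 0 and 4 h and 5541 and 5944 in Wip1-/- cells. Erdr1 signal was 29.3-fold higher with the Wip1-/- label at 0 h and 37.2-fold higher at 4 h. Its dimmer probe set, 1447790_at, read 31.7, 76.9, 78.9 and 74.0. That is at least 1.70-fold higher at 0 h and 1.04-fold lower at 4 h, so the wide difference of Erdr1 was seen with 1 of its 2 probe sets. The suffix _x_at marks a probe set whose probes can also bind other transcripts. Without probe sets of that kind and of the _s_at kind, Erdr1 did not enter among the genes measured.

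Sex-linked genes were set beside Erdr1. Of 8 measured, 2 were at least 2-fold lower on the Wip1-/- array at 0 h and 3 at 4 h, and 2 were lower at both times. The Y-linked demethylase Kdm5d read 119, 131, 36.1 and 55.3, at least 2.56-fold lower at 0 h and 2.37-fold lower at 4 h. The Y-linked Uty read 117, 105, 55.4 and 39.0, which is 2.11-fold lower at 0 h and at least 2.25-fold lower at 4 h. Eif2s3y, also Y-linked, read 247, 298, 144 and 138, and was 1.71-fold and 2.17-fold lower. Xist, the RNA that coats the inactive X chromosome, read 1108, 1119, 926 and 1480 from probe set 1436936_s_at. On the Wip1-/- arrays Kdm5d was below the floor at 0 h and Uty at 4 h. Among the Y-linked probe sets, only Eif2s3y 1417210_at, with 144 and 138, was above the floor on both of these arrays. The other Eif2s3y probe set, 1431642_at, read 6.4, 14.7, 59.9 and 1.4. Xist and Y-linked signal together on all 4 arrays thus rests on that single Eif2s3y probe set, 1417210_at. The part of sex-linked genes in the Erdr1 difference was not tested.

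Pdgfrl encodes a secreted protein that resembles the extracellular part of the PDGF receptors and lacks a kinase domain. Its only probe set, 1428896_at, read 249 and 263 in Wip1+/+ cells at 0 and 4 h and 1492 and 1397 in Wip1-/- cells. Pdgfrl signal was 6.0-fold higher at 0 h and 5.32-fold higher at 4 h, and the arrays of each label lay close together. Of 10 measured PDGF ligands, receptors and related genes, 1 was at least 2-fold higher at 0 h and 2 were lower at 4 h. The medians were 0.36 and -0.03. The ligand Pdgfd had log2 ratios of -0.80 and -1.15, and Csf1r, a related receptor tyrosine kinase of macrophages, had -0.93 and -1.20.

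Ptprv encodes a receptor-type tyrosine phosphatase known as a p53-responsive gene in mouse cells, and the RefSeq annotation lists it as a transcribed pseudogene. Its only probe set, 1449957_at, read 156 and 25 in Wip1+/+ cells at 0 and 4 h and 675 and 563 in Wip1-/- cells. Ptprv signal was 4.33-fold higher with the Wip1-/- label at 0 h and at least 12.1-fold higher at 4 h. The 0 h ratio came to a log2 value of 2.12, and to 2.99 when set against the mean of both Wip1+/+ arrays. The 4 h ratio, 3.60 with the signal of 25 at the floor, came to 2.73 against that mean. Erdr1 and Ptprv make 2 transcribed pseudogenes among the 10 members, 20%, beside 40 among 11525 matched genes, 0.347%. The members were chosen by their signals and the share rests on 2 genes, so nothing is read from it.

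Of 14 measured receptor-type tyrosine phosphatases, 2 were at least 2-fold higher at 0 h and 2 were lower at 4 h, with medians of -0.01 and -0.12. Ptprb, the phosphatase of vascular endothelium, had log2 ratios of 1.24 and 0.59. Ptprc (CD45), the phosphatase of white blood cells, had -0.55 and -1.76. Of 24 measured p53 targets of arrest and apoptosis, 0 were at least 2-fold higher between the labels, and 2 were lower at 0 h and 2 at 4 h. Perp, a p53 target in cell adhesion and apoptosis, was lower at both, with 931, 1157, 347 and 463.

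Mgll encodes monoacylglycerol lipase, which breaks down monoacylglycerols, an endocannabinoid among them. Its brightest probe set, 1426785_s_at, read 279 and 295 in Wip1+/+ cells at 0 and 4 h and 1923 and 1402 in Wip1-/- cells. Mgll signal was 6.90-fold higher at 0 h and 4.76-fold higher at 4 h. Probe set 1450391_a_at read 200, 253, 938 and 863 and was 4.69-fold and 3.41-fold higher. Probe set 1453836_a_at read 151, 212, 444 and 1062 and was 2.95-fold and 5.01-fold higher. Thus 3 of the 4 Mgll probe sets placed both Wip1-/- arrays above both Wip1+/+ arrays. The remaining one, 1431331_at, was above the floor only on the Wip1+/+ array at 4 h, at 47.1.

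Of 12 measured genes of endocannabinoid and glycerolipid breakdown, 2 were at least 2-fold higher and 1 lower at 0 h, and 1 was lower at 4 h. The medians were 0.35 and -0.28. Abhd6, another monoacylglycerol hydrolase, had log2 ratios of 1.30 and 0.65. Lpl, lipoprotein lipase, had -1.45 and -0.81.

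Amacr encodes the racemase that prepares branched-chain fatty acids and bile acid intermediates for oxidation in peroxisomes. Its only probe set, 1417208_at, read 584 and 586 in Wip1+/+ cells at 0 and 4 h and 171 and 87.5 in Wip1-/- cells. Amacr signal was 3.42-fold lower with the Wip1-/- label at 0 h and 6.70-fold lower at 4 h. Of 15 measured genes of peroxisomal branched-chain lipid oxidation, 1 was at least 2-fold higher at 0 h and 0 were at least 2-fold apart at 4 h, with medians of -0.03 and -0.08. Hacl1, a lyase of the same pathway, had a log2 ratio of 1.06 at 0 h and of -0.21 at 4 h. Hsd17b4, the multifunctional enzyme of peroxisomal oxidation, had -0.63 and -0.08.

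Qpct encodes glutaminyl cyclase, which turns an N-terminal glutamine into pyroglutamate in hormones and chemokines. Its only probe set, 1426622_a_at, read 315 and 406 in Wip1+/+ cells at 0 and 4 h and 127 and 52.3 in Wip1-/- cells. Qpct signal was 2.47-fold lower with the Wip1-/- label at 0 h and 7.76-fold lower at 4 h. At 0 h it ranked 684th among all genes by size, and at 4 h it ranked 13th. Its paralogue Qpctl differed by 1.03-fold to 2.03-fold over 3 probe sets. Of 6 measured genes of the list of glutaminyl cyclases and chemokines with N-terminal glutamine, 1 was at least 2-fold higher at 0 h and 1 lower at 4 h. The chemokine Ccl7 had log2 ratios of 1.17 and 0.79, and Ccl12 had -0.59 and, against the floor, -1.62.

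**Figure D2:**
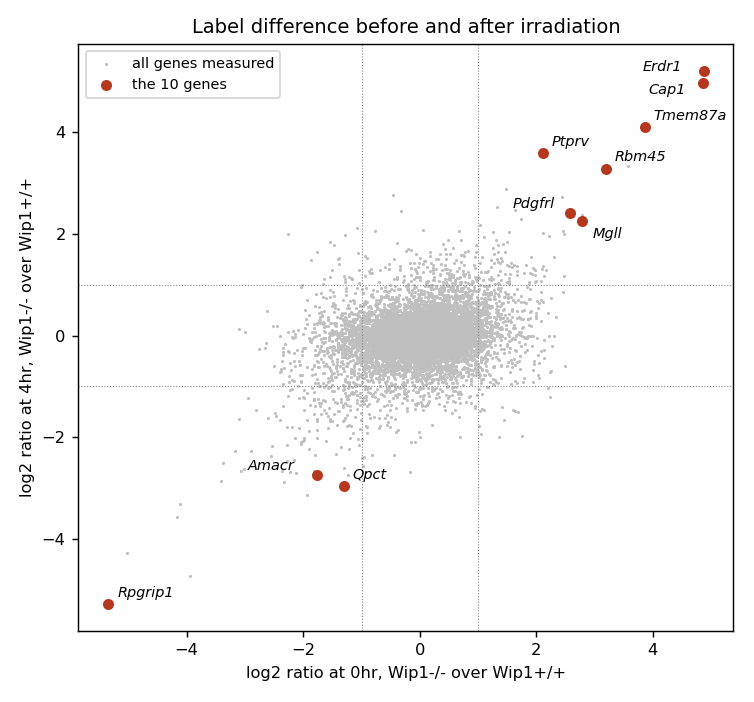
Log2 ratio of signal, Wip1-/- over Wip1+/+, at 0 h (horizontal) and 4 h (vertical); grey points are the genes measured and coloured points the 10 members. Most members lie near the diagonal, and Qpct and Ptprv lie farther from 0 at 4 h than at 0 h; the 4 h values of Tmem87a and Ptprv are lower bounds.

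The ratios between the labels at 0 h and at 4 h were within 1 log2 unit of each other for 8 of the 10 members, 80%, beside 87.2% of all genes measured. Qpct and Ptprv were the exceptions, by -1.65 and 1.48. For Ptprv the 4 h ratio is a bound.

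**Figure D3:**
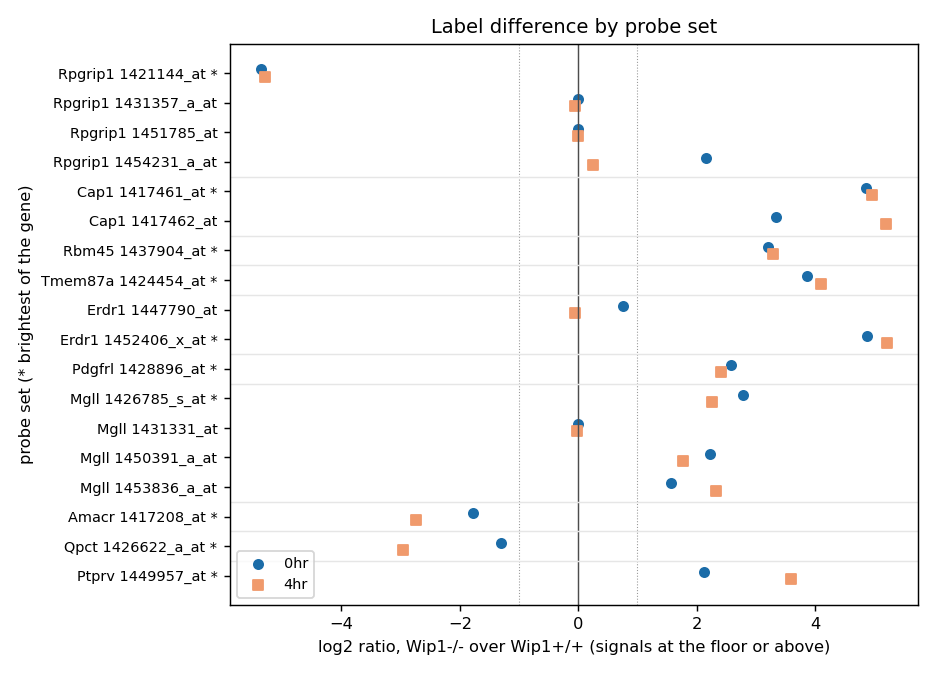
Log2 ratio of signal, Wip1-/- over Wip1+/+, for each of the 18 probe sets of the 10 genes at 0 h and at 4 h, with signals under 46.5 set to that floor. The Cap1 probe sets and 3 of the 4 Mgll probe sets lie above 0, while only 1 Rpgrip1 probe set lies far below 0.

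Across the 4 genes with several probe sets, 8 probe sets besides the brightest were present, and 7 of them exceeded the floor on at least 1 array. For 4 of the 8 the signals of the labels did not overlap, beside 36.2% of the probe sets other than the brightest over all genes measured. In 3 of these, 1 of Cap1 and 2 of Mgll, the direction was that of the brightest probe set, and in the fourth, Rpgrip1 1454231_a_at, it was the opposite. In 6 genes (Rbm45, Tmem87a, Pdgfrl, Amacr, Qpct and Ptprv) the array held 1 probe set, so agreement within the gene could not be looked at. Of the 38 genes at least 4-fold apart in one direction at both times, 15 had another probe set above the floor. In 7 of these another probe set was at least 2-fold apart the same way at both times, and in 1 the opposite way. Among the members 2 of 4 had an agreeing probe set, Cap1 and Mgll.

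The 4 h over 0 h ratios are made of the same 4 signals that chose the genes, so they too are a description, and nothing is read from the counts beside their background. Within Wip1+/+ cells 1 of the 10 members, Ptprv, was at least 2-fold apart, beside 3.08% of all genes. Ptprv signal went from 156 to 25, at least 3.35-fold lower at 4 h. Within Wip1-/- cells 1 member, Qpct, was at least 2-fold apart, beside 10.3% of all genes. Qpct signal went from 127 to 52.3, 2.43-fold lower at 4 h, while in Wip1+/+ cells it went from 315 to 406, 1.29-fold higher. Amacr was 1.95-fold lower at 4 h in Wip1-/- cells, and its Wip1+/+ signals of 584 and 586 were nearly equal. Tmem87a went from 73.1 to 5.4 in Wip1+/+ cells, at least 1.57-fold lower. For Tmem87a the size depends on the floor: with no floor its log2 ratio was -3.76, so 2 members were then at least 2-fold apart in Wip1+/+ cells.

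Of the remaining members, Rpgrip1, Rbm45, Pdgfrl and Erdr1 had small irradiation ratios with their brightest probe sets. Rpgrip1 had log2 ratios of 0.07 in Wip1+/+ and 0.14 in Wip1-/- cells, Rbm45 -0.16 and -0.07, Pdgfrl 0.08 and -0.10, and Erdr1 -0.24 and 0.10. Each is smaller than the pooled SD between probe sets over all genes, 0.37 in Wip1+/+ and 0.62 in Wip1-/- cells. For probe sets with mean signal 500 or more, as these genes have, the SD was 0.18 and 0.54. The Wip1+/+ ratio of Erdr1 was larger in size than 0.18. Cap1 had -0.41 in Wip1+/+ cells, larger than the pooled SD of 0.37, and -0.68 with its second probe set. Probe sets of one gene disagreed in Wip1-/- cells. The second Cap1 probe set was 2.25-fold higher at 4 h while the brightest had a log2 ratio of -0.30, and an Mgll probe set was 2.39-fold higher while the brightest had -0.46. Both of these ratios use the Wip1-/- array at 0 h. Over the 24 measured p53 targets, 1 was at least 2-fold higher at 4 h in Wip1+/+ cells and 5 in Wip1-/- cells, with median log2 ratios of 0.31 and 0.17.

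**Figure D4:**
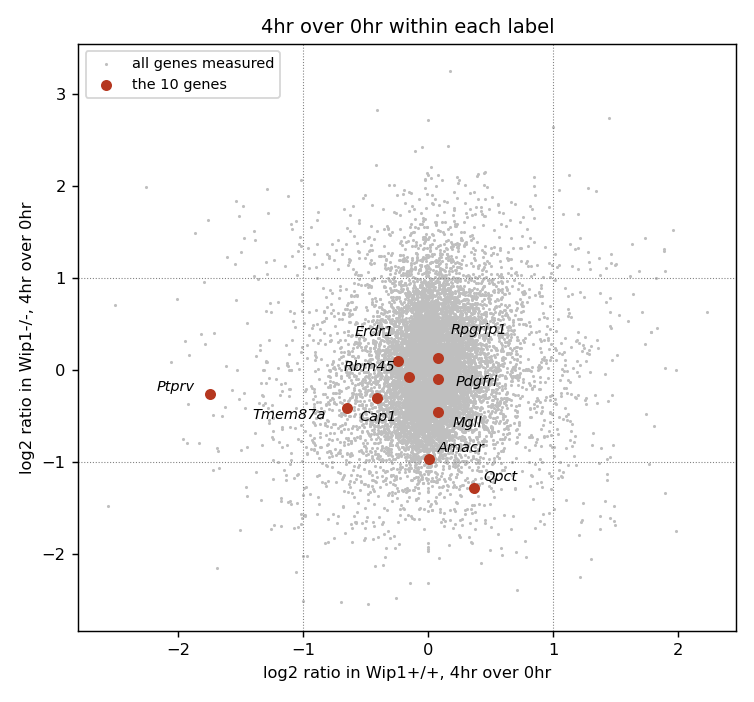
Log2 ratio of signal, 4 h over 0 h, in Wip1+/+ cells (horizontal) and Wip1-/- cells (vertical), for the genes measured (grey) and the 10 members (coloured). Ptprv lies at -1.74 on the horizontal axis, a bound, Qpct at -1.28 on the vertical axis, and the other members within 1 log2 unit of 0 on both axes.

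Over the 11 lists set beside the members, 163 of 207 genes were measured. At 0 h 14.1% of them were at least 2-fold apart between the labels and at 4 h 6.75%, beside 12% and 5.29% of all genes. At both times in the same direction it was 1.84%, beside 2.07%. These 3 genes were Kdm5d, Uty and Perp, all with lower signal on the Wip1-/- arrays. The shares of the list genes thus lay near those of all genes.

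**Figure D5:**
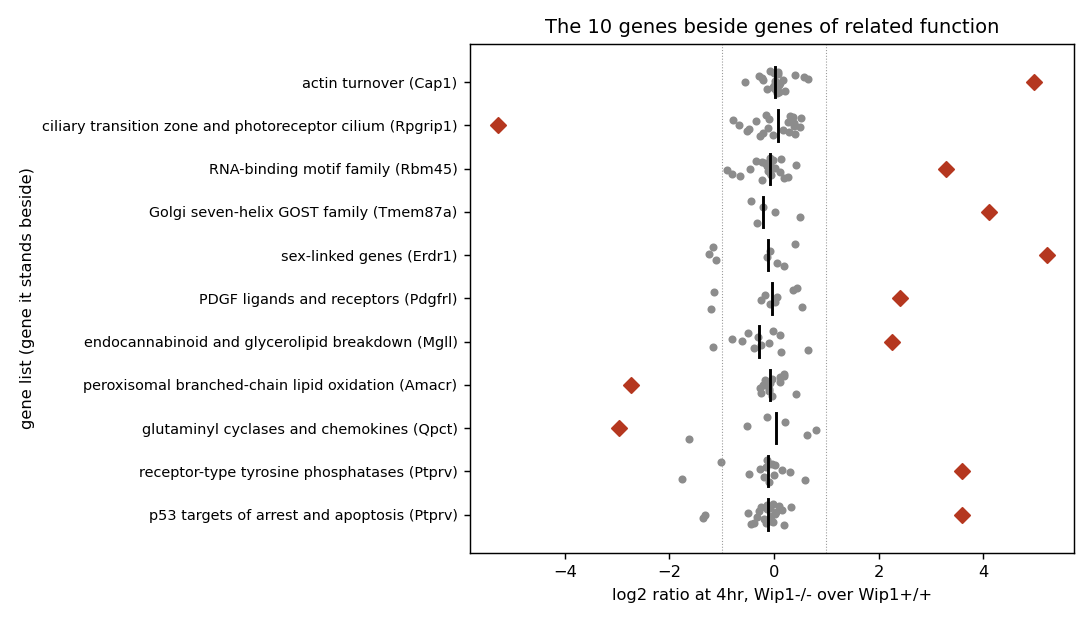
Log2 ratio of signal at 4 h, Wip1-/- over Wip1+/+, for the measured genes of each list set beside a member; grey points are genes, the bar is the list median and the diamond the member. List medians lay between -0.28 and 0.07, beside -0.0048 for all genes.

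Genes next to the members in the genome were compared in the same way, the 3 nearest measured genes on each side, 57 in all. At least 2-fold differences occurred in 3 of them at 0 h and in 4 at 4 h, beside 12% and 5.29% of all genes. The neighbours' median absolute log2 ratio was 0.37 at 0 h and 0.23 at 4 h, beside 0.40 and 0.19 over all genes. None of the 57 was at least 2-fold apart in the direction of its member at both times. Of all genes 2.07% were so apart in either direction, so nothing is read from this. Supt16, a subunit of the histone chaperone FACT that neighbours Rpgrip1, was the only neighbour at least 2-fold apart at both times. Its brightest probe set read 1037, 912, 2726 and 2624, 2.63-fold and 2.88-fold higher with the Wip1-/- label, opposite to Rpgrip1. Its probe set 1449578_at read 42.4, 68.2, 854 and 946, at least 18.4-fold higher at 0 h and 13.9-fold higher at 4 h.

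Genes with signal patterns most like those of the members were found by the Euclidean distance between the 4 log2 signals, each centred on the gene's mean over the 4 arrays. The other members and genes with clone or predicted names were not candidates, so nearest means nearest among the remaining genes measured. Signals under 46.5 entered at that floor. Distances to genes with such signals, among them Ifi202b, Xaf1, Clec16a and C3ar1, therefore depend on the floor. For Ifi202b both Wip1+/+ signals were below it. Map2, a microtubule-associated protein, was among the 2 nearest for 6 members, and Ifi202b, an interferon-inducible gene, for 4. Ifi202b read 4.6, 2.4, 553 and 468, at least 11.9-fold higher at 0 h and at least 10.1-fold at 4 h, and was nearest to Rbm45 at a distance of 0.27. Map2 read 93.1, 76.3, 508 and 506, 5.46-fold and 6.64-fold higher, and was nearest to Pdgfrl at 0.28. Clec16a, which acts in mitophagy, was nearest to Mgll at 0.16. Xaf1 was nearest to Rpgrip1 at 0.77. C3ar1, the receptor of a complement peptide, was nearest to Amacr at 0.30, and Rgs17, a regulator of G protein signalling, to Qpct at 0.36. The distances of Cap1, Erdr1 and Ptprv to their nearest genes outside the members were larger, 1.49, 1.62 and 1.0 units. Distances between members are not given here.

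Outside the members, 5 genes were at least 8-fold apart in one direction at both times: Xaf1, Ang, Usp18, Gm6958 and Ifi202b. Usp18, the protease that removes ISG15, read 1395, 1207, 80.9 and 122 and was 17.2-fold and 9.93-fold lower on the Wip1-/- arrays. Ang, the ribonuclease angiogenin, read 835, 989, 6.5 and 83.1, at least 18.0-fold lower at 0 h and 11.9-fold lower at 4 h. Xaf1, an interferon-inducible regulator of apoptosis, read 1519, 1117, 17.1 and 57.8 on its brightest probe set, at least 32.7-fold lower at 0 h and 19.3-fold lower at 4 h. A second Xaf1 probe set, 1443621_at, read 38.7, 34.5, 393 and 640, higher by at least 8.45-fold at 0 h and at least 13.8-fold at 4 h. Xaf1 was the 1 gene of the 38 whose probe sets went opposite ways by at least 2-fold at both times.

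Fibroblast markers were present on every array: 19 of the 20 on the list were measured, and their summed signal was 358424 and 341297 in Wip1+/+ cells and 495391 and 374345 in Wip1-/- cells. Macrophage markers differed between the labels. Of 18 measured, 10 were at least 2-fold lower on the Wip1-/- array at 0 h and 16 at 4 h, with median log2 ratios of -1.10 and -1.72. Of all 11543 genes, 788 were at least 2-fold lower at 0 h and 340 at 4 h, with medians of 0.05 and -0.0048. The summed signal of the macrophage markers was 10912 and 11285 in Wip1+/+ cells and 3277 and 2697 in Wip1-/- cells. The defining marker Adgre1 (F4/80) read 471, 357, 120 and 153, and Itgam and Aif1 were below the floor on every array. In bulk RNA, fewer cells of a type and less RNA per cell cannot be told apart. The macrophage list moved with the labels in the direction of Rpgrip1, Amacr and Qpct, and its part in the differences of the 10 genes was not tested. Epithelial, endothelial, muscle and neural markers had 7, 7, 10 and 6 measured genes. At 0 h 2, 1, 2 and 2 were at least 2-fold higher on the Wip1-/- array and 0, 1, 1 and 1 lower. At 4 h 2, 0, 0 and 1 were at least 2-fold higher and 0, 1, 0 and 0 lower. Their median log2 ratios were 0.57, 0.32, 0.65 and 0.15 at 0 h and 0.56, 0.40, -0.02 and -0.13 at 4 h.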

How the data were processed

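Total RNA of 4 MEF samples, 1 per group, was hybridised to Affymetrix Mouse Genome 430 2.0 arrays. The deposited values are intensity, a linear signal per probe set and array made by the authors with GCOS, per the submitters' processing notes; neither its version nor its settings are given in those notes. The mean after trimming 2% at each end was 500 on every array, so the values were used as deposited. Leaving out controls, 34945 of 45037 probe sets had 1 gene symbol, 932 several and 9160 none. Values under 46.5, the 40th percentile, were set to that floor before log2, which touched 36.7% to 41.7% of the values of an array. A gene was represented by its brightest probe set and entered if its mean was at least 67.98, which left 11543 genes. With 1 array per group no test was run, and at least 2-fold was the rule of size. Named genes were all probe sets of the 10 members and, of each list, the genes at least 2-fold apart in one direction at both times. Where a list had none, the 2 with the largest mean ratio were named. The nearest 3 measured neighbours per side were also named, as were other genes at least 8-fold apart at both times. The 2 nearest patterns were named too, without the other members and clone names. Paralogues, Eif2s3y, Xist, Adgre1 and second probe sets were named after their values were seen. The members and lists were chosen with earlier results of these data known. Alternatives changed 1 choice at a time: 3 scalings, 2 floors, 2 filters, the probe set rule, the exclusion of _x_at and _s_at probe sets, and the mean of both Wip1+/+ arrays as comparator. The median of a member's probe set ratios was added after seeing the data. R 4.3.3 with limma 3.58.1 and Python 3.11.15 with numpy 2.4.6, pandas 2.3.3 and matplotlib 3.10.9 were used, and the ratio steps were tested on simulated data.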

Additional observations from a re-analysis of the deposited data

Results flagged for a closer look

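For 5 members the 4 h over 0 h ratio had opposite signs in the 2 genotypes, and these differences were not tested, with 1 array per group. The share of all genes with opposite signs is not given here, so nothing is read from this count. The Wip1-/- log2 ratio minus the Wip1+/+ log2 ratio was -1.65 for Qpct, -0.97 for Amacr, -0.54 for Mgll, 0.34 for Erdr1 and -0.17 for Pdgfrl. The pooled SD between probe sets was 0.37 for the ratio in Wip1+/+ cells and 0.62 in Wip1-/- cells. For probe sets with mean signal 500 or more it was 0.18 and 0.54. The Wip1+/+ ratio of Amacr, 0.01, changed sign under 2 of the 3 other scalings. With median signals over probe sets the ratios in Wip1+/+ and Wip1-/- cells were 0.42 and 0.57 for Mgll and 0.24 and 0.0044 for Erdr1, so their signs were then not opposite. With the median of the probe sets' ratios they were 0.21 and -0.06 for Mgll, and for Erdr1 as with median signals.

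Among the 10092 probe sets with no gene symbol or several, which the comparisons leave out, 4 were at least 8-fold apart between the labels in one direction at both times. Of these, 2 without a symbol had higher signal on both Wip1-/- arrays. Probe set 1439200_x_at read 10.9, 3.0, 972 and 984 (Wip1+/+ at 0 and 4 h, then Wip1-/-), at least 20.9-fold higher at 0 h and at least 21.2-fold at 4 h. Probe set 1458719_at read 78.0, 43.9, 753 and 568, 9.65-fold higher at 0 h and at least 12.2-fold at 4 h. The others had lower signal on both Wip1-/- arrays. Probe set 1452349_x_at, with several symbols, read 1894.5, 2100.9, 73.2 and 177.3, 25.9-fold lower at 0 h and 11.8-fold lower at 4 h. Probe set 1456319_at, without a symbol, read 411.3, 378.5, 2.3 and 32.5, at least 8.85-fold and at least 8.14-fold lower.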

How the results depend on the processing

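No paired analysis was possible because each group is 1 array and the labels carry no replicate numbers. Over all alternatives the ratios of the 10 members between the labels kept their direction, except for Rpgrip1. The ratio of its median signals over probe sets was 0.89 at 0 h and 0.10 at 4 h, but that sets different probes against each other, most of them at the floor, and shows no reversed direction. The median of its probe sets' log2 ratios, an alternative chosen after seeing the data, was 0 and -0.026. At least 9 of the 10 members were at least 2-fold apart at each time under each alternative: Rpgrip1 was lost with either median over probe sets, Erdr1 without _x_at and _s_at probe sets, and Qpct with the filter at the 67th percentile. With the floor at the 25th percentile or no floor, 2 members were at least 2-fold apart after irradiation in Wip1+/+ cells, in place of 1. In Wip1-/- cells 2 were with scaling by the brighter median and 0 with the 67th percentile filter, in place of 1. That filter left 8502 genes, fewer genes tested, and lowered the counts of genes at least 2-fold apart to 180 higher and 411 lower at 0 h, 61 and 96 at 4 h, 20 and 8 for irradiation in Wip1+/+ cells, 337 and 100 in Wip1-/- cells, and 99 at both times. Among the list genes it left 14 at 0 h, 5 at 4 h, 0 for irradiation in Wip1+/+ cells and 10 in Wip1-/- cells. With no filter, 1016 genes were higher at 0 h, 281 lower after irradiation in Wip1+/+ cells and 953 lower in Wip1-/- cells. With median signals over probe sets, 425 genes were higher after irradiation in Wip1-/- cells and 7 list genes were apart at 4 h; the cause was not tested. Scaling by the brighter median moved the median of all genes to 0.12 at 0 h. Without the Wip1-/- array at 0 h, the irradiation ratio in Wip1-/- cells has no value. Signals near the floor of 46.5 limit what can be seen for Tmem87a and Ptprv.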
